A study of Mus musculus with 32 samples.

Results

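T cells and natural killer (NK) cells were followed through 35 genes by which they are recognised, in bone and gingiva of mice with a ligated molar, an overloaded molar or both. The genes were taken from a list of symbols and found by Ensembl identifier among the 55359 genes of the count tables. All 35 were present in both tables. They fall into 7 roles: 4 subunits of the T cell receptor complex, 10 co-receptors and co-stimulatory molecules, 4 proximal signalling proteins, 6 transcription factors, 2 interleukin 2 receptor chains, 5 cytotoxic effectors with interferon gamma, and 4 NK cell receptors.

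All mice were wild type C57BL/6J males of 9 weeks. LiTra mice had a silk thread around a left upper molar, which brings on periodontitis, together with composite resin built up on its chewing surface, which overloads the tooth. Li mice had the thread alone, Tra mice had the resin alone, and Co mice were untreated. Each of the 4 groups had 4 libraries of poly(A) RNA from bone and 4 from gingiva, 32 in all. The title asks whether the overload adds to bone loss in ligature periodontitis through gene expression in bone. The labels state neither when tissue was taken after treatment nor whether each library is a separate animal. The p-values therefore speak only of library-to-library spread, which may be in part technical.

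T cells read antigen through a receptor that cannot signal by itself and depends on the CD3 and zeta chains. The kinases Lck and Zap70 and the adaptor Lat carry that signal inward, while CD4, CD8 and CD28 tune it. NK cells lack the antigen receptor and recognise stressed cells through receptors such as NKG2D and NKp46, and both NK cells and CD8 T cells kill with perforin and granzymes. In periodontitis, T cells are known as a source of signals that drive osteoclasts, and bone marrow is home to memory lymphocytes.

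The 3 CD3 chains mark T cells, while Cd247 also serves receptors of NK cells. These 4 subunits carry the receptor signal, so the windows around their transcription starts are shown here, each 300 bases long with 250 before and 50 after the start. They come from RefSeq on GRCm38.p6, another build than the counts, which used GRCm39. Capitals mark matches, on either strand, to 4 short motifs of lymphocyte regulators: AGGAAG for ETS factors, CTTTGA for TCF factors, TGTGGT for RUNX factors and AGATAA for GATA factors. Each is written in the direction of its gene.
Cd247: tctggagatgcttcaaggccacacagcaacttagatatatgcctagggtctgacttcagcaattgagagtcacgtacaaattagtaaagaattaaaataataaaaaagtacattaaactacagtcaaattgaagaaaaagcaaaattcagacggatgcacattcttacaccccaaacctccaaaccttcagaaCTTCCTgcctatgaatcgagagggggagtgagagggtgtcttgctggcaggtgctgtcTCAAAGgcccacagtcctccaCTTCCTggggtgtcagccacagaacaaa
Cd3d: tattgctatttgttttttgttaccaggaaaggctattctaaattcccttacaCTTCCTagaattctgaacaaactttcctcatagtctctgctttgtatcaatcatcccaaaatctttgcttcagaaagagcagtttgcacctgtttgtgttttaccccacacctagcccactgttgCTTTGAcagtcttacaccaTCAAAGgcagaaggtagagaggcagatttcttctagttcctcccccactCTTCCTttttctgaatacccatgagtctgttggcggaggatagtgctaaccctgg
Cd3e: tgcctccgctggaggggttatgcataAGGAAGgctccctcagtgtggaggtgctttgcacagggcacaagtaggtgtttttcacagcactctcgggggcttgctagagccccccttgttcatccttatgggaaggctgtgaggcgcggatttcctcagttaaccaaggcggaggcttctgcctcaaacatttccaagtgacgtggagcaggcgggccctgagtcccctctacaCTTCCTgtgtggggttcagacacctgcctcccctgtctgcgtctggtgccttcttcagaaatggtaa
Cd3g: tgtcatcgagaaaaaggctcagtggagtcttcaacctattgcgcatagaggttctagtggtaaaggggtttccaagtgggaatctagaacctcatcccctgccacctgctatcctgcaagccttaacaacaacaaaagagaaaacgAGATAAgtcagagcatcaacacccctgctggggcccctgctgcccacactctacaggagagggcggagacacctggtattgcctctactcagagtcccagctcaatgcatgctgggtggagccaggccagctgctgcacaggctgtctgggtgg

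The Cd247 window lies at chr1:165788431-165788730 on the plus strand, Cd3d at chr9:44981536-44981835 on the plus strand, Cd3e at chr9:45009562-45009861 on the minus strand and Cd3g at chr9:44980382-44980681 on the minus strand. Cd3d and Cd3g are thus read away from each other from neighbouring starts. The Cd247 window held 2 ETS matches and 1 TCF match, Cd3d held 2 of each, Cd3e held 2 ETS matches and Cd3g held 1 GATA match. No match overlapped another, and the letters of the RUNX motif were in none of the 4 windows. Windows were found for 27 of the 35 genes, 34 windows in all because some genes have several starts. AGGAAG was in 17 of the 34, beside 35.4% of all 32851 windows of the same length. TGTGGT was in 11, or 32.4% beside 16.8%, CTTTGA in 7, or 20.6% beside 16%, and AGATAA in 2, or 5.9% beside 11.2%. A match describes the letters only.

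Bone libraries held between 38163979 and 70793037 counts, and gingiva libraries between 36913075 and 50740393. These genes were thinly read: the 35 together took at most 0.0211% of the counts of any bone library and 0.0158% of any gingiva library, and a library held 26 to 35 of them above 0. In 3 bone libraries, LiTra 1, Tra 3 and Co 3, just 10 genes took 53.6%, 62.9% and 51.1% of the counts, and genes of nasal glands held 49.5%, 15.8% and 46.6%. These genes also held 23.9% of the counts of Li 2 and 14.6% of those of Co 4. Untreated bone and gingiva stood apart as their labels say, with all 8 osteoblast and osteocyte genes higher in bone and 9 of 10 keratinocyte genes lower. Levels below are CPM, counts relative to library size, scaled by TMM within a tissue and listed from library 1 to 4. They are not corrected for transcript length, so they compare libraries and not genes. Differences are log2 ± SE from edgeR over all genes of the tissue, and a gene passed at a Benjamini-Hochberg adjusted p under 0.05.

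In bone, ligature and overload together went with lower RNA of T and NK cell genes. Of the 34 members that passed the filter on low counts, 18 were lower in LiTra than in Co bone and 0 were higher, where 8.64% of all 21205 genes tested were lower, 8.29% higher and 16.9% passed in either direction. The 18 included the cytotoxic genes Prf1, Gzma and Nkg7, both CD8 chains, the receptor subunits Cd3d, Cd3e and Cd247 and the NK receptors Klrb1c and Klrk1. The median difference over the 34 was -1.61, against -0.01 over all genes, and 31 of the 34 were negative. In 20 members every LiTra library was below every Co library and in none above, where 13.9% of all genes were below and 11.9% above. In bulk tissue, fewer cells of a type and less RNA per cell cannot be told apart.

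**Figure D1:**
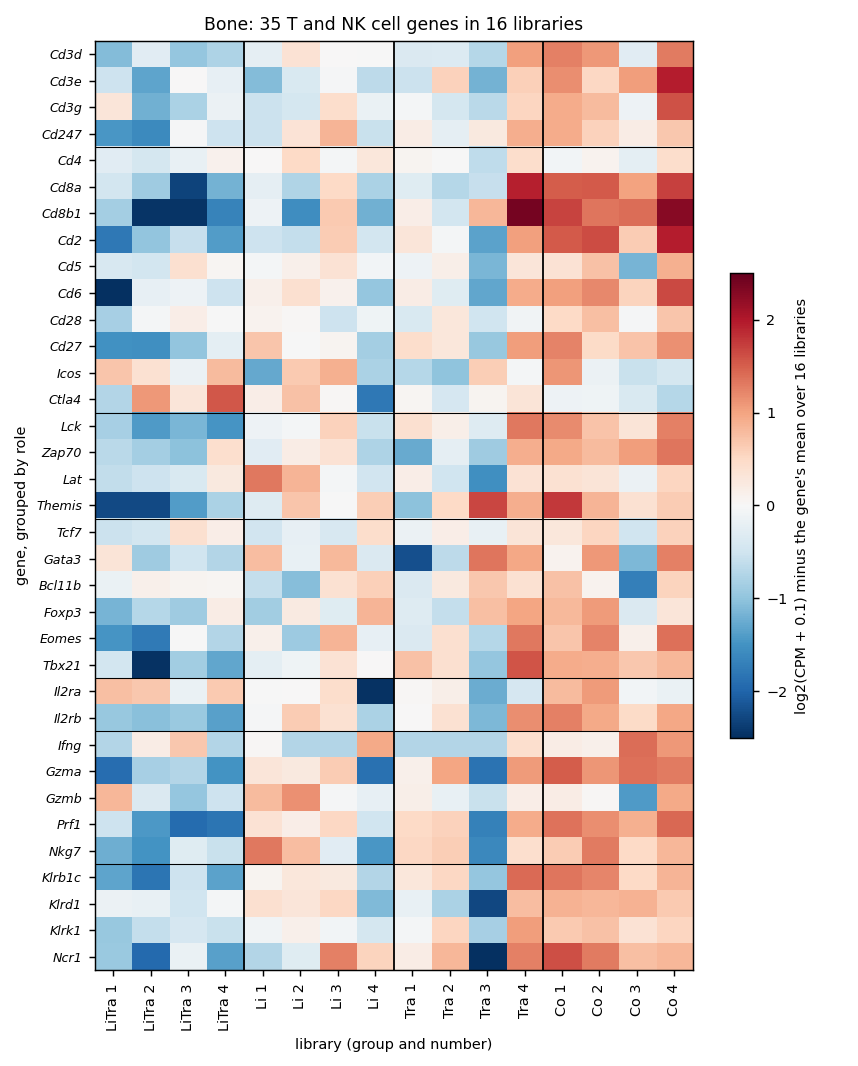
Each row is 1 of the 35 genes, grouped by role, and each column 1 of the 16 bone libraries in the order LiTra, Li, Tra and Co. Colour gives log2(CPM + 0.1) minus the mean of that gene over the 16 libraries, from blue for low to red for high. The Co columns are mostly red and the LiTra columns mostly blue, while Tra 3 is low and Tra 4 high in many rows.

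Of the T cell receptor complex, 3 of 4 subunits were lower in LiTra than in Co bone. Cd3e had 0.642, 0.326, 0.963 and 0.813 CPM in LiTra bone, 0.401, 0.713, 0.94 and 0.573 in Li, 0.623, 1.48, 0.367 and 1.49 in Tra and 2.27, 1.42, 2.07 and 4.02 in Co. The Co libraries lay above all LiTra and Li libraries, while Tra 2 and Tra 4 reached into the range of Co. Cd3e, the epsilon chain that pairs with the delta and gamma chains, differed by -1.83 ± 0.50 (adjusted p = 0.0227). It is also the member with the smallest p for Li against Co, -1.89 ± 0.50 (adjusted p = 0.054), which missed the threshold. Cd3d, the delta chain, differed by -1.86 ± 0.47 (adjusted p = 0.0142) and Cd247, the zeta chain, by -1.50 ± 0.47 (adjusted p = 0.0434). Cd3g, the gamma chain, averaged 1.07 ± 0.524 CPM in LiTra and 2.71 ± 1.28 CPM in Co bone (SD, n = 4 each), and its difference of -1.35 ± 0.45 (adjusted p = 0.0546) did not pass. The call on Cd3e was lost when LiTra 1, LiTra 2 or Co 4 was left out, with differences between -2.04 and -1.47 over all libraries left out in turn, and that on Cd247 in 8 of 16 such fits.

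Co-receptors divided between CD8, which was lower, and CD4, which did not pass the test. Cd8a had 0.844, 0.608, 0.164 and 0.477 CPM in LiTra bone, 1.01, 0.67, 1.74 and 0.653 in Li, 0.957, 0.698, 0.78 and 4.92 in Tra and 3.62, 3.69, 2.52 and 4.16 in Co. Every LiTra and Li library was below every Co library, and Tra 4, unlike the other Tra libraries, lay above Co. Cd8a, the alpha chain of the co-receptor of cytotoxic T cells, differed by -2.74 ± 0.67 (adjusted p = 0.012). Cd8b1 had 0.203, 0, 0 and 0.0707 CPM in LiTra bone, 0.401, 0.0865, 0.76 and 0.138 in Li, 0.512, 0.296, 0.872 and 2.77 in Tra and 1.67, 1.28, 1.33 and 2.54 in Co. The LiTra values rest on 10 counts over 4 libraries, and 2 of these were at 0. Cd8b1, the beta chain, differed by -4.76 ± 1.17 (adjusted p = 0.0129). Cd4 had 5.27, 4.73, 5.61 and 6.95 CPM in LiTra bone, 6.43, 9.14, 6.19 and 7.81 in Li, 6.77, 6.37, 4.08 and 8.8 in Tra and 6.09, 6.81, 5.41 and 8.79 in Co. The 4 groups overlapped throughout. For Cd4, the co-receptor for MHC class II that some mouse dendritic cells also carry, the difference was -0.26 ± 0.23 (adjusted p = 0.517), with a 95% interval of -0.77 to 0.24.

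Cd2 had 0.608, 1.14, 1.54 and 0.831 CPM in LiTra bone, 1.6, 1.53, 3.72 and 1.68 in Li, 2.92, 2.29, 0.872 and 4.89 in Tra and 6.98, 7.5, 3.7 and 9.5 in Co. The LiTra libraries lay below all but Tra 3 of the Tra group and below all of Co. Cd2, an adhesion receptor of lymphocytes, B cells included, differed by -2.74 ± 0.51 (adjusted p = 0.00227). Its value for Li against Co was -1.70 ± 0.49 (adjusted p = 0.0737). The part of B cells in the Cd2 difference was not tested. Cd27 had 0.675, 0.668, 1.02 and 1.79 CPM in LiTra bone, 3.49, 2.1, 2.23 and 1.13 in Li, 2.89, 2.6, 1.06 and 4.47 in Tra and 5.13, 2.98, 3.52 and 4.77 in Co. LiTra and Co did not overlap, and Li 1 reached the lower end of Co. Cd27, a co-stimulatory receptor of the TNF receptor family, differed by -1.98 ± 0.46 (adjusted p = 0.00976). The remaining 6 surface molecules did not pass for LiTra against Co. Cd5 and Cd6, related surface regulators of T cell signalling, differed by -0.47 ± 0.42 and -2.00 ± 0.78, and the co-stimulators Cd28 and Icos by -0.67 ± 0.29 and 0.33 ± 0.60. Ctla4, the inhibitory counterpart of Cd28, had the most positive value of the 34 members, 1.27 ± 0.62 (adjusted p = 0.187).

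**Figure D2:**
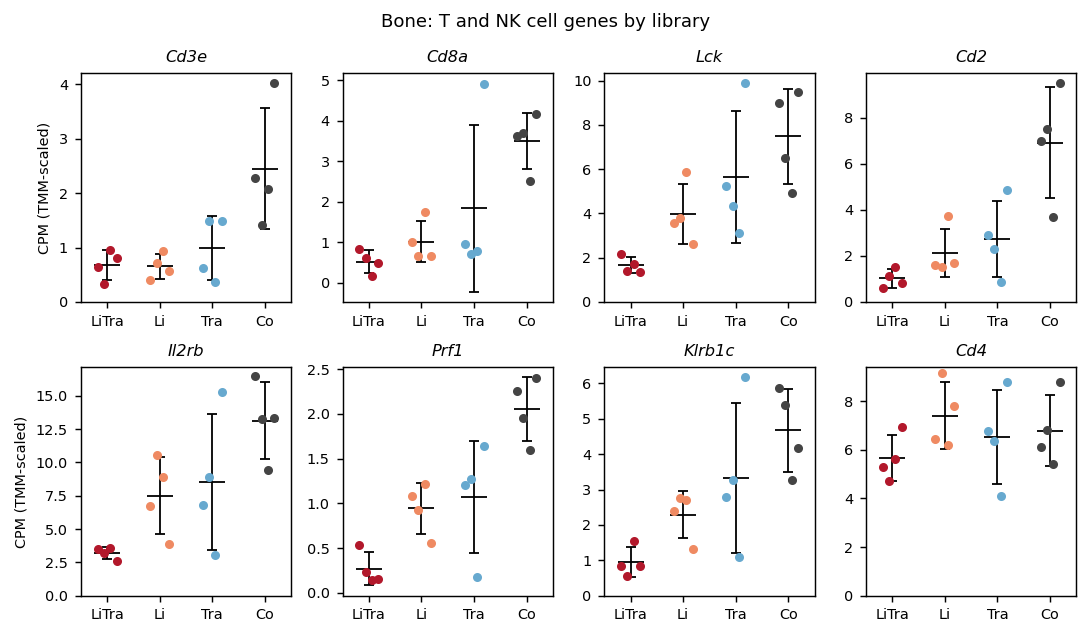
CPM, scaled by TMM, of 8 genes in the 16 bone libraries, with the groups LiTra, Li, Tra and Co from left to right, points for libraries, a long bar for the mean and whiskers for the SD (n = 4). For Cd3e, Cd8a, Lck, Cd2, Il2rb, Prf1 and Klrb1c every LiTra library sits below every Co library, while the Cd4 groups overlap.

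Among the proximal signalling proteins, 3 of 4 were lower. Lck had 2.16, 1.41, 1.72 and 1.34 CPM in LiTra bone, 3.57, 3.8, 5.89 and 2.63 in Li, 5.23, 4.32, 3.12 and 9.9 in Tra and 8.98, 6.5, 4.92 and 9.48 in Co. The LiTra libraries were the 4 lowest of the 16. Lck, the kinase that starts signalling from the receptor, had the smallest p of all members, with -2.17 ± 0.37 (adjusted p = 0.00142). Zap70, the kinase recruited to the zeta chain, differed by -1.54 ± 0.50 (adjusted p = 0.0484), and Themis, which thymocytes need for their selection, by -3.64 ± 0.99 (adjusted p = 0.0213). Themis had 14 counts over the 4 LiTra libraries, 0 in LiTra 1 and LiTra 2, against 193 counts over the Co libraries. Lat, an adaptor that platelets and mast cells use too, differed by -0.58 ± 0.41 (adjusted p = 0.392) and did not pass. Leaving out 1 library in turn ended the call on Zap70 in 11 of 16 fits and that on Themis without LiTra 3 or Co 1, where the lowest and highest differences for Themis were -4.82 and -3.21.

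Transcription factors of the T lineage were mostly not called. Eomes and Tbx21, the T-box factors of cytotoxic and type 1 lymphocytes, differed by -2.01 ± 0.63 (adjusted p = 0.041) and -2.53 ± 0.82 (adjusted p = 0.0467), and these calls were lost in 8 and 12 of the 16 fits that left out a library. Foxp3 had 0.169, 0.267, 0.225 and 0.583 CPM in LiTra bone, 0.227, 0.605, 0.387 and 0.989 in Li, 0.379, 0.296, 0.918 and 1.09 in Tra and 0.959, 1.16, 0.37 and 0.64 in Co. LiTra 4 lay within the range of Co and the groups overlapped. Foxp3, which defines regulatory T cells, differed by -1.32 ± 0.59 (adjusted p = 0.149). Gata3 had 0.473, 0.148, 0.225 and 0.177 CPM in LiTra bone, 0.68, 0.303, 0.705 and 0.257 in Li, 0, 0.19, 1.06 and 0.792 in Tra and 0.391, 0.879, 0.111 and 1.0 in Co. Co 3, at 3 counts, was below all LiTra libraries, and the difference for this factor of T cell development and T helper 2 cells was -1.25 ± 0.97 (adjusted p = 0.447). Bcl11b had 4.53, 5.52, 5.31 and 5.21 CPM in LiTra bone, 3.31, 2.36, 6.59 and 7.75 in Li, 3.92, 6.03, 8.12 and 6.65 in Tra and 8.43, 5.41, 1.48 and 7.47 in Co. The LiTra values were all inside the range of Co. Bcl11b, which commits precursors to the T lineage, differed by -0.15 ± 0.45 (adjusted p = 0.888), and Tcf7, a factor of naive and memory T cells, by -0.34 ± 0.28 (adjusted p = 0.481).

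Of the 2 interleukin 2 receptor chains, 1 was lower. Il2rb had 3.48, 3.22, 3.54 and 2.58 CPM in LiTra bone, 6.7, 10.6, 8.93 and 3.88 in Li, 6.81, 8.91, 3.07 and 15.3 in Tra and 16.5, 13.3, 9.44 and 13.3 in Co. The LiTra libraries were the lowest of the 16 with the exception of Tra 3, which lay among them. Il2rb, the beta chain that T and NK cells also use for interleukin 15, differed by -2.03 ± 0.40 (adjusted p = 0.00365). Il2ra, the alpha chain of activated and regulatory T cells, spanned 2.91 to 5.64 CPM in LiTra and 2.92 to 7.0 CPM in Co bone, with a difference of 0.02 ± 0.51 (adjusted p = 0.987).

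Of the 4 cytotoxic effectors tested, 3 were lower in LiTra than in Co bone. Prf1 had 0.54, 0.237, 0.143 and 0.159 CPM in LiTra bone, 1.08, 0.929, 1.22 and 0.554 in Li, 1.2, 1.27, 0.184 and 1.64 in Tra and 2.25, 1.95, 1.59 and 2.4 in Co. LiTra libraries were below Li, below Co and below Tra other than Tra 3. Prf1, the pore-forming perforin, differed by -2.94 ± 0.58 (adjusted p = 0.00354). Gzma had 0.304, 0.757, 0.82 and 0.442 CPM in LiTra bone, 1.78, 1.69, 2.25 and 0.316 in Li, 1.56, 2.9, 0.321 and 3.09 in Tra and 4.21, 3.17, 3.85 and 3.65 in Co. LiTra and Co did not overlap, and neither did Tra and Co. Gzma, granzyme A, differed by -2.67 ± 0.64 (adjusted p = 0.0115), and Nkg7, a protein of cytotoxic granules, by -1.68 ± 0.55 (adjusted p = 0.048), a call that was lost in 13 of 16 fits without 1 library. Gzmb had 1.59, 0.638, 0.389 and 0.566 CPM in LiTra bone, 1.55, 2.01, 0.829 and 0.732 in Li, 0.957, 0.741, 0.551 and 0.967 in Tra and 0.977, 0.867, 0.259 and 1.74 in Co. The groups overlapped, with Co 3 the lowest library of all. Gzmb, granzyme B, differed by -0.29 ± 0.55 (adjusted p = 0.805). Ifng had 0, 0.089, 0.164 and 0 CPM in LiTra bone, 0.0697, 0, 0 and 0.218 in Li, 0, 0, 0 and 0.121 in Tra and 0.0888, 0.0809, 0.333 and 0.251 in Co. Ifng, which encodes interferon gamma, never exceeded 11 counts in a bone library and was not tested.

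Of the NK cell receptors, 2 of 4 were lower. Klrb1c had 0.844, 0.564, 1.56 and 0.831 CPM in LiTra bone, 2.39, 2.77, 2.7 and 1.32 in Li, 2.78, 3.26, 1.1 and 6.18 in Tra and 5.86, 5.38, 3.26 and 4.18 in Co. All LiTra libraries were below all Co libraries. Klrb1c, the NK1.1 receptor by which NK cells of this strain are stained, differed by -2.30 ± 0.47 (adjusted p = 0.00422), and Klrk1, the activating receptor NKG2D, by -1.22 ± 0.31 (adjusted p = 0.0163). Ncr1 had 0.372, 0.134, 0.697 and 0.247 CPM in LiTra bone, 0.436, 0.627, 2.05 and 1.21 in Li, 0.913, 1.48, 0 and 2.04 in Tra and 2.61, 2.08, 1.41 and 1.48 in Co. LiTra and Co did not overlap, though Ncr1, the NK receptor NKp46, missed the threshold with -2.39 ± 0.89 (adjusted p = 0.0824). Klrd1, the CD94 chain that partners the NKG2 receptors, spanned 1.99 to 2.76 CPM in LiTra and 4.52 to 5.31 CPM in Co bone, without overlap, and differed by -1.04 ± 0.50 (adjusted p = 0.179).

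Genes of some other blood cells were also lower in LiTra than in Co bone, where 8.64% of all genes were lower and 8.29% higher. Their part in the result was not tested. Of 13 B cell genes 10 were lower, with a summed level of 43.3 to 76.1 CPM for LiTra, 49.7 to 202 for Li, 43.6 to 262 for Tra and 313 to 476 for Co bone. All 10 erythroid genes were lower, with sums of 1721 to 5941 CPM for LiTra, 6847 to 20223 for Li, 14323 to 43913 for Tra and 22821 to 45377 for Co bone. Neutrophil genes were lower in 4 of 10, with sums of 2550 to 5871 CPM for LiTra, 2701 to 11775 for Li, 2197 to 8835 for Tra and 9581 to 12203 for Co bone. Of the pan-leukocyte genes, which white blood cells share, 1 of 10 was lower, a count near the share over all genes. Their sums were 1131 to 1712 CPM for LiTra, 1078 to 2979 for Li, 651 to 1953 for Tra and 2088 to 2866 for Co bone. No gene of these 4 lists was at 0 in any bone library. Macrophage genes divided, with 2 of 10 higher and 2 lower, and 5 of 6 osteoclast genes were higher. The 35 T and NK genes summed to 63.5 to 86.4 CPM for LiTra, 80.8 to 127 for Li, 62.2 to 163 for Tra and 111 to 181 for Co bone. As a share of the pan-leukocyte sum they made up 4.88 to 5.72% for LiTra, 4.28 to 7.5% for Li, 5.29 to 9.55% for Tra and 5.32 to 7.21% for Co bone, so LiTra and Co overlapped on that scale. Parts of the set did not behave alike on it. The 4 NK receptors made up 0.392 to 0.526% of the pan-leukocyte sum for LiTra and 0.656 to 0.825% for Co bone, without overlap, and the 4 receptor subunits 0.155 to 0.275% for LiTra and 0.257 to 0.508% for Co bone, with a slight overlap. For the B cell genes this share was 2.7 to 5.63% for LiTra and 15 to 19.1% for Co bone, also without overlap.

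**Figure D3:**
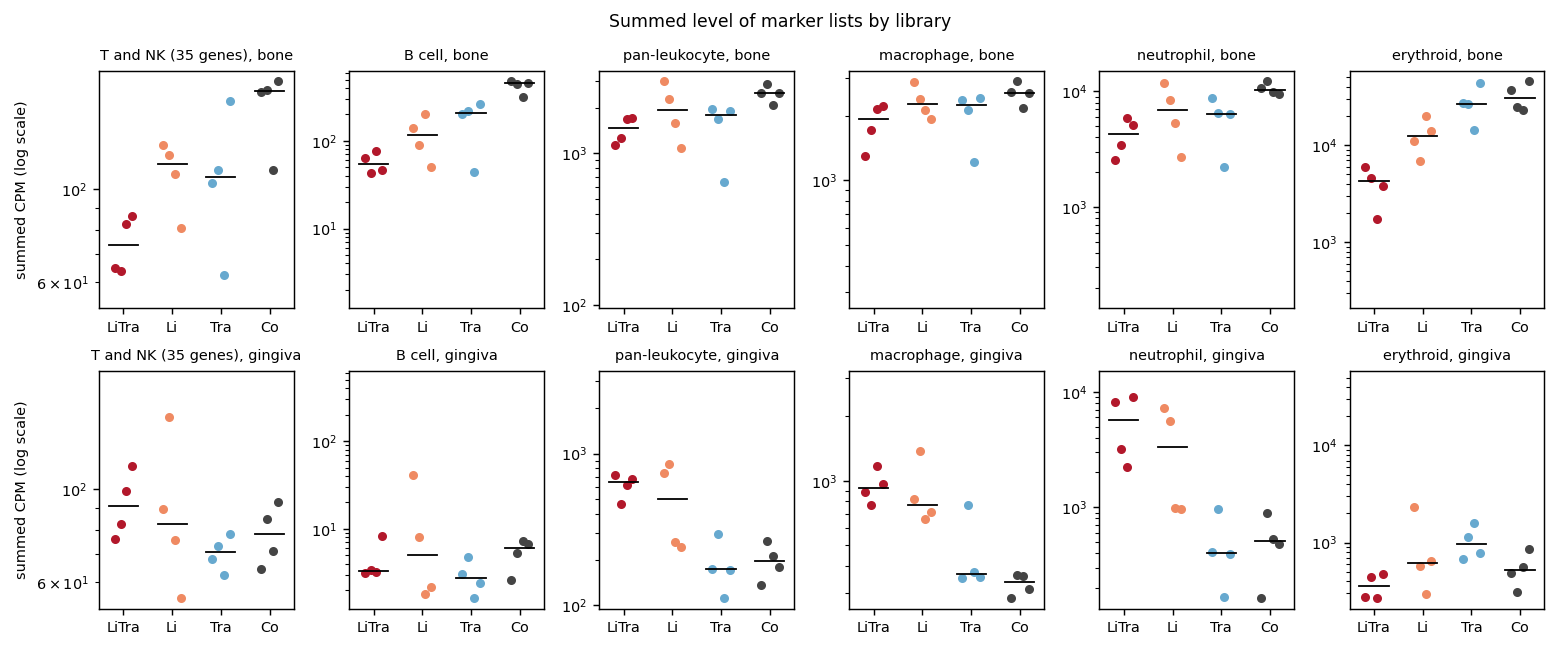
Summed CPM of 6 gene lists in each library, on log axes, with bone in the upper row and gingiva in the lower row and the groups LiTra, Li, Tra and Co from left to right. Points are libraries and the bar is the median. In bone the T and NK, B cell, pan-leukocyte, neutrophil and erythroid sums are all lower in LiTra than in Co. In gingiva the pan-leukocyte, macrophage and neutrophil sums are higher in LiTra than in Co.

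Each treatment alone gave no call among these genes. For Li against Co bone 0 of 34 members passed, where 3.51% of all genes did (2.66% higher, 0.849% lower). Of the members, 11 were under an unadjusted p of 0.05, DESeq2 called 3 and limma-voom with quality weights called 5. The median over the 34 was -0.81, 30 were negative, and in 11 members all Li libraries were below all Co libraries and in none above, where 5.57% of all genes were below and 8.05% above. For Tra against Co bone 0 of 34 passed, where 0% of all genes did, 6 were under an unadjusted p of 0.05, and DESeq2 and limma-voom called 0. The median there was -0.58, and 32 of 34 were negative. The 18 genes called for LiTra had a median of -2.1 in that comparison, -0.96 for Li against Co and -0.61 for Tra against Co, and all 18 were negative in each. These 3 comparisons share the Co libraries.

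Adding overload to the ligature gave no call either. For LiTra against Li bone 0 of 34 passed, where 0% of all genes did, 10 were under an unadjusted p of 0.05, and DESeq2 and limma-voom called 0. In 6 members, Cd3d, Lck, Themis, Tbx21, Il2rb and Prf1, every LiTra library was below every Li library, where 2.81% of all genes were below and 1.84% above. The median difference was -0.88. For the interaction of ligature and overload, 0 of 34 passed and 0 were under an unadjusted p of 0.05, where 0% of all genes passed, and DESeq2 and limma-voom called 0. The effects of the pair of treatments were therefore not shown to be more or less than the sum of each.

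For LiTra against Tra bone 3 of 34 were lower and 0 higher, where 2.49% of all genes were lower, 3.07% higher and 5.56% passed in all. Lck differed by -1.77 ± 0.36 (adjusted p = 0.0112), Klrb1c by -1.81 ± 0.46 (adjusted p = 0.0327) and Cd8b1 by -4.15 ± 1.15 (adjusted p = 0.0493). The LiTra libraries were all below the Tra libraries for Lck and Cd8b1, where 5.15% of all genes were below and 6.61% above. The count came to 10 without Tra 3, and to 1 without LiTra 2, Tra 2 or Tra 4. Leaving out 1 library ended the call on Klrb1c in 6 of 16 fits and that on Cd8b1 in 14, and that on Lck in none. Tra 4 was the highest Tra library and Tra 3 the lowest for the summed 35 genes, at 163 and 62.2 CPM.

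The calls in bone depended on scaling. With library totals in place of TMM, 0 of 34 members passed for LiTra against Co, and calls over all genes were 12 in place of 3589. The differences of the 18 genes did not shrink: their median was -2.16 (range -5.04 to -1.16), against -2.1 (range -4.76 to -1.22) under TMM, while their median SE was 0.70, against 0.50, and their adjusted p-values were 0.0848 to 0.554. Without LiTra 1, Tra 3 and Co 3, 19 members were lower, and without Li 2, 14 were.

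Other lymphocyte genes in bone were read from lists chosen with earlier results of these data known. They are not all confined to T and NK cells. The part of B cells, whose genes were lower as well, was not tested. Of 15 further genes of T cell receptor signalling, 8 were lower and 0 higher in LiTra than in Co, where 8.64% of all genes were lower and 8.29% higher. Skap1, an adaptor of T cell adhesion, was among the 8 and differed by -2.26 ± 0.48 (adjusted p = 0.00535). Of 10 genes of lymphocyte homing and survival 4 were lower, among them Il7r, the interleukin 7 receptor, with -1.52 ± 0.38 (adjusted p = 0.0142). Of 12 other cytotoxic and NK genes 3 were lower, led by Klrc1, a partner of Klrd1, with -1.81 ± 0.32 (adjusted p = 0.0018). Klrc1 belongs to a family of near-identical genes among which reads may be split.

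A few lymphocyte genes were higher in LiTra than in Co bone, where 8.29% of all genes were higher. Of 9 checkpoint genes 2 were higher and 0 lower. Havcr2, the receptor TIM-3 that macrophages and dendritic cells carry as well, had 11.6, 14.2, 12.7 and 10.9 CPM in LiTra, 9.45, 9.83, 7.12 and 8.88 CPM in Li and 5.02, 4.89, 2.18 and 4.09 CPM in Co bone. LiTra lay above Li and Li above Co without overlap, and the differences from Co were 1.61 ± 0.23 (adjusted p = 0.000592) for LiTra and 1.12 ± 0.23 (adjusted p = 0.0165) for Li, which was lost without Co 4. Tnfrsf9, the co-stimulatory receptor 4-1BB, differed by 1.67 ± 0.35 (adjusted p = 0.00502) for LiTra against Co. Of 7 helper and type 17 genes tested 3 were higher and 0 lower. Il17a, the cytokine interleukin 17A, had 238, 297, 8 and 412 counts in LiTra bone and 0 counts in all 4 Co libraries. Against a floor of 3 counts over the Co group it was at least 336-fold higher in LiTra, a bound that covers counting error only. Li bone held 161 Il17a counts over its 4 libraries.

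In gingiva few of the 35 genes passed, and not in 1 direction. Of the 31 members tested, 1 was higher and 1 lower in LiTra than in Co gingiva, where 11.4% of all 20143 genes were higher, 11.5% lower and 22.9% passed in all. The median over the 31 was 0.32, with 20 positive. Every LiTra library was above every Co library in 4 members, Icos, Il2ra, Gzmb and Klrd1, and below in 3, Cd5, Themis and Ncr1. These are 12.9% and 9.68% of the members, where 14.5% of all genes were above and 14% below, so such separation was no more frequent here than over all genes. Cd8b1, Eomes, Ifng and Gzma were below the filter in this tissue. In the same comparison 7 of 10 macrophage genes, 3 of 10 neutrophil genes and 9 of 10 pan-leukocyte genes were higher, the pan-leukocyte genes with sums of 466 to 718 CPM for LiTra, 242 to 851 for Li, 112 to 293 for Tra and 135 to 266 for Co gingiva. The 35 T and NK genes made up 10.6 to 17.8% of that sum for LiTra, 12.1 to 28.7% for Li, 24.9 to 55.8% for Tra and 32 to 52.3% for Co gingiva. LiTra and Co did not overlap on this share, and the part of the pan-leukocyte genes in it was not tested. Bcl11b, which keratinocytes express as well, averaged 33.2 CPM in LiTra gingiva, where the 35 genes averaged a sum of 92.9 CPM. In Co gingiva it averaged 32.2 CPM beside a sum of 78.5 CPM. The 4 receptor subunits made up 0.695 to 1.43% of the pan-leukocyte sum for LiTra and 2.2 to 3.43% for Co. The 4 NK receptors made up 1.01 to 1.55% for LiTra and 1.71 to 3.75% for Co.

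Klrd1 had 4.18, 3.91, 3.27 and 4.68 CPM in LiTra gingiva, 3.05, 4.78, 1.98 and 2.58 in Li, 1.72, 1.16, 2.04 and 2.52 in Tra and 2.43, 2.18, 2.25 and 1.88 in Co. The LiTra libraries were above all Tra and Co libraries. Klrd1, the CD94 chain, was higher by 0.87 ± 0.28 (adjusted p = 0.0342) against Co and by 1.11 ± 0.28 (adjusted p = 0.0137) against Tra. Cd5 had 4.05, 5.96, 6.16 and 3.3 CPM in LiTra gingiva, 4.12, 5.62, 8.79 and 6.47 in Li, 7.63, 9.85, 8.4 and 7.61 in Tra and 10.2, 8.17, 7.79 and 9.81 in Co. LiTra was below Tra and Co without overlap. Cd5 was lower by -0.89 ± 0.24 (adjusted p = 0.0148) against Co and by -0.78 ± 0.24 (adjusted p = 0.0316) against Tra. The Klrd1 call against Co was lost in 7 of 16 fits that left out a library, and that of Cd5 in none.

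For LiTra against Tra gingiva 4 of 31 members were higher and 1 was lower, where 9.36% of all genes were higher, 9.44% lower and 18.8% passed in all. Cd3g had 2.25, 1.95, 4.5 and 4.61 CPM in LiTra gingiva, 0.924, 2.89, 0.976 and 0.289 in Li, 1.28, 0.646, 0.63 and 0.777 in Tra and 1.6, 2.2, 1.89 and 1.96 in Co. The LiTra libraries were above all Tra libraries and overlapped Co. Cd3g differed by 2.00 ± 0.53 (adjusted p = 0.0169) against Tra, and by 0.80 ± 0.51 (adjusted p = 0.289) against Co. Icos had 3.93, 3.75, 5.78 and 7.22 CPM in LiTra gingiva, 2.82, 8.7, 0.952 and 0.933 in Li, 0.591, 1.51, 0.304 and 1.91 in Tra and 1.89, 3.09, 1.15 and 2.57 in Co. LiTra was above Tra and Co without overlap, as 12.4% and 14.5% of all genes were. For Icos, a co-stimulator of activated T cells, the difference from Tra was 2.26 ± 0.69 (adjusted p = 0.0345) and that from Co 1.25 ± 0.67 (adjusted p = 0.201). Foxp3 had 0.481, 0.805, 1.37 and 0.596 CPM in LiTra gingiva, 0.799, 2.14, 0.268 and 0.511 in Li, 0.0739, 0.345, 0.109 and 0.188 in Tra and 0.437, 0.863, 0.36 and 0.767 in Co. The 4 Tra libraries were the lowest here with the exception of Li 3. Foxp3 differed by 2.16 ± 0.65 (adjusted p = 0.0324) against Tra and 0.42 ± 0.61 (adjusted p = 0.68) against Co. In 9 members, 29% of those tested, all LiTra libraries were above all Tra libraries, beside 12.4% of all genes. In 1 member, 3.23%, all were below, beside 11.1% of all genes. The count of 5 came to 2 without LiTra 4 or Tra 3 and to 3 without LiTra 1, LiTra 3 or Tra 1. The call on Cd3g was lost without LiTra 4, those on Icos and Foxp3 in 5 of 16 fits each, and that on Cd5 without LiTra 1, LiTra 4, Tra 2 or Tra 3.

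**Figure D4:**
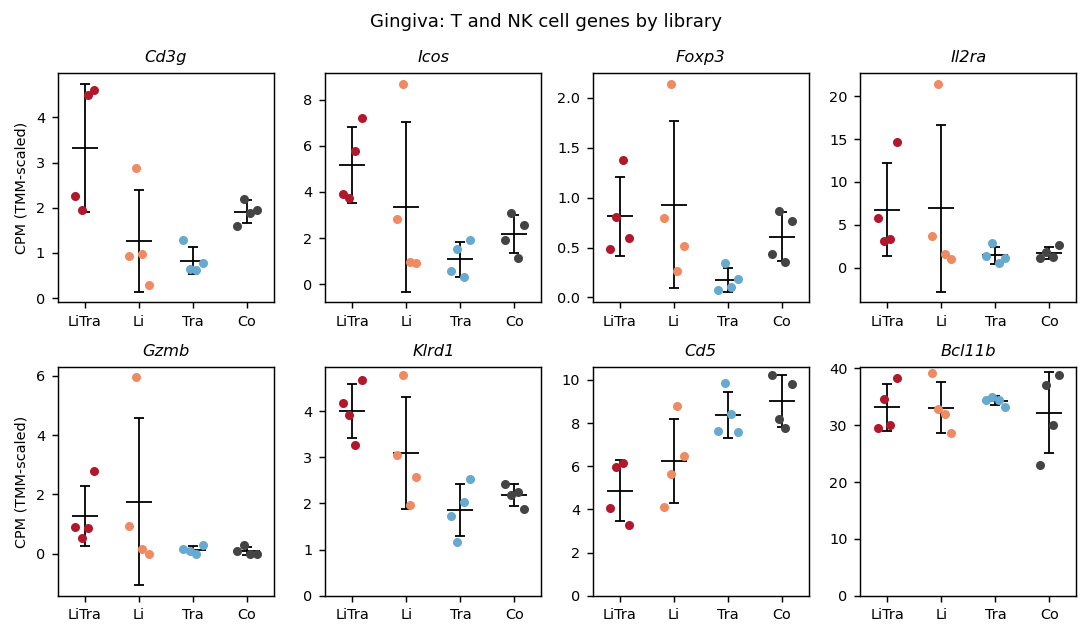
CPM, scaled by TMM, of 8 genes in the 16 gingiva libraries, with the groups LiTra, Li, Tra and Co from left to right, points for libraries, a long bar for the mean and whiskers for the SD (n = 4). Klrd1 and Icos sit higher and Cd5 lower in LiTra than in Co, Bcl11b overlaps in all groups, and 1 Li library stands far above the other Li libraries for Icos, Il2ra, Gzmb and Foxp3.

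Other members that mark T cells in general did not pass in gingiva. Cd3e had 0.532, 0.368, 0.568 and 0.527 CPM in LiTra gingiva, 0.599, 2.19, 0.757 and 0 in Li, 0.172, 0.452, 0.239 and 1.11 in Tra and 0.0971, 1.22, 0.671 and 0.899 in Co. Li 2 was the highest and Li 4 was at 0. Cd4 had 0.836, 2.71, 4.38 and 2.09 CPM in LiTra gingiva, 0.974, 3.54, 1.9 and 1.58 in Li, 1.03, 1.66, 0.76 and 1.67 in Tra and 1.17, 1.96, 2.11 and 1.56 in Co. The groups overlapped. Cd3e differed by -0.53 ± 0.95 (adjusted p = 0.744) and Cd4 by 0.56 ± 0.46 (adjusted p = 0.436) for LiTra against Co. Cd8a had 0.177, 0.598, 0.592 and 0.413 CPM in LiTra gingiva, 0.524, 1.17, 0.293 and 0.156 in Li, 0.271, 0.215, 0.239 and 0.212 in Tra and 0.753, 0.311, 0.0959 and 0.265 in Co. No LiTra library exceeded 26 counts, and the difference from Co was 0.32 ± 0.65 (adjusted p = 0.78). Gata3 had 0.304, 0.253, 0.331 and 0.0917 CPM in LiTra gingiva, 0.175, 0.828, 0.122 and 0.2 in Li, 0.148, 0.237, 0.0868 and 0.141 in Tra and 0.534, 0.431, 0.288 and 0.423 in Co. LiTra 1 and LiTra 3 lay just above Co 3, the lowest Co library, and the difference was -0.77 ± 0.62 (adjusted p = 0.422). Bcl11b had 29.6, 34.7, 30.1 and 38.3 CPM in LiTra gingiva, 39.1, 32.8, 31.9 and 28.6 in Li, 34.4, 35, 34.5 and 33.2 in Tra and 23.1, 37.1, 30.0 and 38.8 in Co. All groups shared 1 range for Bcl11b, which keratinocytes express as well, and the 95% interval of the difference from Co was -0.27 to 0.35.

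Gzmb had 0.887, 0.529, 0.876 and 2.77 CPM in LiTra gingiva, 0.924, 5.94, 0.146 and 0 in Li, 0.172, 0.0862, 0 and 0.283 in Tra and 0.0971, 0.288, 0 and 0 in Co. Every LiTra library was above every Co library, and Li 2 was the highest of all. Gzmb, with 216 counts over the LiTra libraries against 16 over the Co libraries, differed by 3.67 ± 1.48 (adjusted p = 0.0878) and did not pass. Ncr1 had 0.177, 0.092, 0 and 0.206 CPM in LiTra gingiva, 0, 0.509, 0.342 and 0 in Li, 0.0985, 0, 0 and 0.353 in Tra and 0.219, 0.431, 0.24 and 0.238 in Co. LiTra lay below Co with at most 9 counts a library, and the difference was -1.23 ± 1.35 (adjusted p = 0.569). Ifng had 0, 0, 0.237 and 0.0917 CPM in LiTra gingiva, 0, 0, 0 and 0 in Li, 0, 0.0862, 0 and 0 in Tra and 0, 0, 0.0719 and 0.106 in Co. Ifng was at 0 in 11 of the 16 gingiva libraries. Il2ra, the alpha chain, ranged over 3.17 to 14.7 CPM in LiTra and 1.14 to 2.7 CPM in Co without overlap, and its difference was 1.94 ± 0.83 (adjusted p = 0.107). Lat came closest to the threshold of those not called, with 1.22 ± 0.45 (adjusted p = 0.0613).

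Neither treatment alone gave a call in gingiva. For Li against Co 0 of 31 members passed, where 7.49% of all genes did (5.19% higher, 2.3% lower), 3 were under an unadjusted p of 0.05, DESeq2 called 1 and limma-voom called 0. For Tra against Co 0 of 31 passed, where 0% of all genes did, 4 were under an unadjusted p of 0.05, and DESeq2 and limma-voom called 0. In that comparison Cd3d, Cd3g, Gata3 and Foxp3 were below Co in every Tra library, 12.9% of the members beside 1.87% of all genes. In 0 members all Tra libraries were above, beside 3.21% of all genes. The median over the 31 was -0.48. For LiTra against Li 0 of 31 passed, where 0.0844% of all genes did (0.0248% higher, 0.0596% lower), 1 was under an unadjusted p of 0.05, DESeq2 called 0 and limma-voom called 1. The interaction gave 0 of 31, where 0% of all genes passed, 1 was under an unadjusted p of 0.05, DESeq2 called 1 and limma-voom called 0.

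Of the further T and NK lists in gingiva, 2 of 15 receptor signalling genes, 3 of 10 homing genes, 2 of 9 helper and type 17 genes tested and 4 of 9 checkpoint genes were higher in LiTra than in Co, with 0, 1, 1 and 0 lower, where 11.4% of all genes were higher and 11.5% lower. The receptor signalling count is thus near the share over all genes. The 10 other cytotoxic and NK genes tested had a median difference of 0.56. Lcp2, the adaptor SLP-76 that myeloid cells share, had 19.4, 15.9, 18.2 and 17.9 CPM in LiTra and 2.74, 3.98, 3.31 and 3.25 CPM in Co gingiva, and differed by 2.43 ± 0.46 (adjusted p = 0.00257). Trbc2, a constant region of the T cell receptor beta chain, had 29.9, 34, 28.4 and 40.8 CPM in LiTra and 13.8, 24, 16.6 and 17.4 CPM in Co gingiva, without overlap. Its difference was 0.89 ± 0.26 (adjusted p = 0.0225), a call lost without LiTra 4, Co 1, Co 3 or Co 4. Lef1, a factor close to Tcf7 that hair and oral epithelium use too, was lower by -1.54 ± 0.37 (adjusted p = 0.00909). Il17f, the cytokine interleukin 17F, had 303, 87, 0 and 1177 counts in LiTra gingiva and 0 in all Co libraries, at least 503-fold higher against 3 counts over the Co group. Most of these counts were in LiTra 4, and without it the bound was 169-fold. Li gingiva held 535 Il17f counts over its 4 libraries, and Il17f passed for Li against Co gingiva as well (adjusted p = 0.045).

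The tissues were compared in 1 fit of all 32 libraries, with CPM scaled over all of them. In untreated mice, 20 of 34 members were higher and 3 lower in bone than in gingiva, where 27.2% of all 22559 genes were higher, 26.4% lower and 53.6% passed in all. Nkg7 had 19.1, 29.6, 16.1 and 20.9 CPM in Co bone, against 0.654, 0.312, 0.973 and 0.847 CPM in Co gingiva. Lat had 16.1, 14.9, 10.3 and 17 CPM in Co bone, against 0.46, 2.25, 0.973 and 1.06 CPM in Co gingiva. Neither gene overlapped between the tissues. Nkg7 differed by 4.94 ± 0.89 (adjusted p = 3.88e-05), Lat by 3.61 ± 0.48 (adjusted p = 5.76e-07) and Lck by 2.61 ± 0.46 (adjusted p = 2.83e-05). All 4 cytotoxic effectors tested and all 4 NK receptors were higher in bone, while 0 of the 4 receptor subunits passed with edgeR and 1, Cd3e, was under an unadjusted p of 0.05. Cd3e had 1.74 ± 0.80 (adjusted p = 0.0689), and it passed with DESeq2 (adjusted p = 0.0308) and with limma-voom (adjusted p = 0.0105).

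The 3 members lower in bone were Bcl11b, Cd5 and Ctla4. Bcl11b had 8.75, 5.44, 1.42 and 7.37 CPM in Co bone, against 23, 37.1, 30.5 and 38.8 CPM in Co gingiva. Every bone library was below every gingiva library. Bcl11b differed by -2.49 ± 0.36 (adjusted p = 1.66e-06), Cd5 by -1.79 ± 0.35 (adjusted p = 9.98e-05) and Ctla4 by -1.99 ± 0.67 (adjusted p = 0.0145). Pan-leukocyte genes were higher in bone in 10 of 10, and keratinocyte genes, with sums of 28.4 to 7443 CPM for Co bone and 84890 to 105236 CPM for Co gingiva under the scaling within each tissue, were lower in 9 of 10. The part of either in the result was not tested.

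The effect of the combined treatment differed between the tissues for 6 of 34 members, all more negative in bone, where 6.68% of all genes were more negative, 5.59% more positive and 12.3% passed in all. For Lck the effect in bone minus that in gingiva was -2.97 ± 0.63 (adjusted p = 0.00363), and for Cd2 -3.15 ± 0.82 (adjusted p = 0.013). It was -2.52 ± 0.76 (adjusted p = 0.0303) for Il2rb, -3.06 ± 0.93 (adjusted p = 0.0313) for Cd8a, -1.90 ± 0.59 (adjusted p = 0.0327) for Klrd1 and -2.14 ± 0.71 (adjusted p = 0.0461) for Cd3g. Lck had 2.19, 1.42, 1.73 and 1.35 CPM in LiTra bone, against 9.32, 6.53, 4.71 and 9.35 CPM in Co bone. Lck had 0.943, 1.97, 3.32 and 2.33 CPM in LiTra gingiva, against 1.14, 1.17, 0.803 and 1.77 CPM in Co gingiva. The groups were apart in bone and overlapped in gingiva. Leaving out 1 of the 32 libraries ended the call on Cd3g in 22 fits, on Klrd1 in 11, on Cd8a in 9 and on Il2rb in 6, and on Lck and Cd2 in none. The effect of the ligature alone differed for 0 of 34 members, where 2.04% of all genes passed (1.36% more positive, 0.683% more negative), 6 were under an unadjusted p of 0.05, and DESeq2 and limma-voom called 0. Over the 34, the median difference of the LiTra effect was -1.76, against 0.03 over all genes, and it was -2.53 over the 10 pan-leukocyte genes, of which 9 passed. With library totals in place of TMM 0 of the 6 passed.

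**Figure D5:**
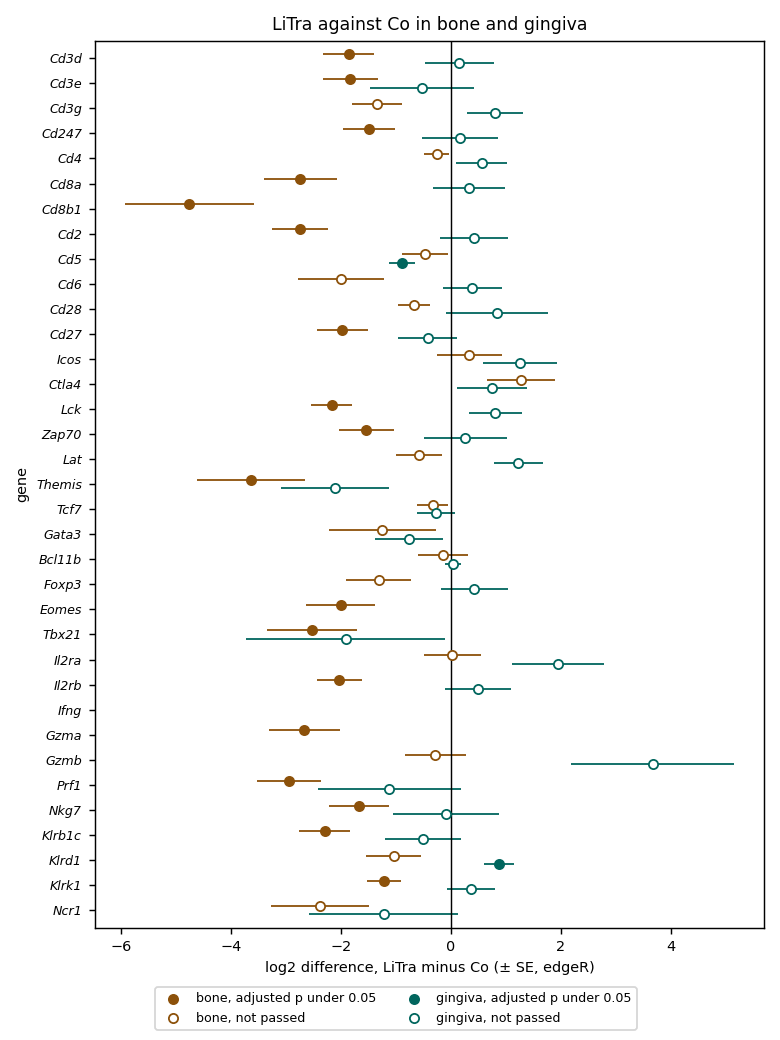
Log2 difference of LiTra minus Co with its SE for each of the 35 genes, brown for bone and green for gingiva, filled where the adjusted p was under 0.05; genes below the filter have no point. In bone 18 filled points lie left of 0, and in gingiva only Klrd1, to the right, and Cd5, to the left, are filled.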

How the data were processed

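Bulk poly(A) RNA of 32 libraries was analysed, 4 for each of 4 groups in each of 2 tissues. Per the submitters' processing notes, the tools included Trimmomatic 0.39, FastQC 0.11.9, HISAT2 2.2.1, StringTie 2.1.7, DESeq2 1.32.0 and the build GRCm39; the sources used here give neither the annotation nor the strand setting. The deposited values are estimated counts per gene, all whole numbers, without normalization. Columns named CR were read as the composite resin group, Tra. Symbols for 52083 of 55359 gene identifiers came from a GENCODE table of another build, and 3276 had none.

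In R 4.3.3, edgeR 4.0.16 scaled libraries by TMM, kept genes with filterByExpr (minimum count 10, minimum total 15) and tested 15 comparisons by quasi-likelihood, two-sided, with Benjamini-Hochberg adjustment over all genes kept: 21205 in bone, 20143 in gingiva and 22559 over both. All 16 libraries of a tissue, or all 32 for comparisons of tissues, entered 1 fit. SE is the log2 difference divided by the square root of F. Alternatives used DESeq2 1.42.0 and limma 3.58.1, other scalings, filters and thresholds, and left out libraries. The fit was also run on simulated counts drawn gene by gene. These lacked the uneven share of nasal gland genes in the bone libraries, so they cannot speak to the dependence on scaling. Floors of 3 counts cover counting error only; 95% intervals use the t distribution of the edgeR fit.

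The 35 genes, and 16 other lists of 157 genes, were chosen with earlier results of these data known. A gene was given by library if it was among the 8 smallest p of the members called in a comparison, or was one of Cd3e, Cd4, Cd8a, Foxp3, Ifng, Gzmb, Ncr1, Gata3 and Bcl11b; of another list at most 3 genes of smallest p were named. The promoter windows are RefSeq's on GRCm38.p6.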

Additional observations from a re-analysis of the deposited data

Results flagged for a closer look

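Among 278 groups of 4 libraries with a value above 0, 25 held a library far from the other 3. The rate of 1 in 20 set for this cut-off assumes normal values and does not apply to low counts. A group with 1 library above 0 and the rest at 0 is always flagged. This was so for Tbx21 in Li and LiTra gingiva, Cd8b1 in LiTra gingiva and Ifng in Tra bone. It was also so for Eomes, Gzma, Ifng and Prf1 in Tra gingiva. In Li gingiva library 2 stood above the others for Zap70 at 3.57 CPM, Il2ra at 21.5 CPM, Gzmb at 5.94 CPM, Cd6 at 1.44 CPM, Gata3 at 0.828 CPM, Cd8b1 at 0.531 CPM and Tbx21 at 0.17 CPM. In Tra bone library 4 stood above the others for Cd8a at 4.92 CPM, Cd3d at 2.1 CPM and Ifng at 0.121 CPM, and library 3 stood below for Nkg7 at 3.81 CPM. In LiTra gingiva library 3 was high for Cd8b1 at 0.497 CPM and Tbx21 at 0.237 CPM, and library 4 for Gzmb at 2.77 CPM.

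In LiTra bone library 4 was apart for Zap70 at 1.84 CPM, and library 3 was low for Il2ra at 2.91 CPM. In Li bone library 3 was high for Cd2 at 3.72 CPM. In Tra gingiva library 4 was high for Eomes at 0.188 CPM, library 2 for Gzma at 0.151 CPM and Ifng at 0.0862 CPM and library 1 for Prf1 at 0.0985 CPM, while library 3 had Nkg7 at 0. In Co bone library 1 was apart for Icos at 1.97 CPM, and in Co gingiva library 2 for Cd28 at 0.982 CPM and Ncr1 at 0.431 CPM.

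The effect of LiTra against Co in bone minus that in gingiva passed the test for 6 members, all of them already given above: Lck at -2.97, Cd2 at -3.15, Il2rb at -2.52, Cd8a at -3.06, Klrd1 at -1.90 and Cd3g at -2.14 on the log2 scale, each more negative in bone.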

How the results depend on the processing

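The counts of members called depended on scaling and test. With library totals in place of TMM the count was 0 for LiTra against Co bone, LiTra against Tra bone and the LiTra effect in bone minus gingiva. DESeq2's size factors gave 1 for Li against Co bone. Without a filter the counts were 1 for LiTra against Tra bone, 1 for LiTra against Co gingiva, 2 for LiTra against Tra gingiva and 3 for the difference of tissues; the filter of CPM over 1 gave 1 for Li against Co bone and 5 for LiTra against Tra bone. DESeq2 called 3 for Li against Co bone, 12 for LiTra against Tra bone, 1 for Li against Co gingiva, 5 for LiTra against Co gingiva, 1 for the interaction in gingiva and 11 for the difference of tissues. Limma-voom called 5, 11, 0, 6, 0 and 15 for the same comparisons in that order, and 1 for LiTra against Li gingiva. At an adjusted p under 0.01 the counts were 6 for LiTra against Co bone, 0 for LiTra against Tra bone and for both LiTra comparisons with Co and Tra in gingiva, and 1 for the difference of tissues. Without the 3 bone libraries named above they were 3 for Li against Co bone, 8 for LiTra against Tra bone and 1 for the difference of the Li effect. With only the groups compared they were 0 for LiTra against Tra bone, 6 for LiTra against Co gingiva and 8 for LiTra against Tra gingiva. The cause was not tested.

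Leaving out each library in turn gave 0 to 2 calls for Li against Co bone, 12 to 20 for LiTra against Co bone, 1 to 10 for LiTra against Tra bone, 0 to 1 for Li against Co gingiva, 1 to 4 for LiTra against Co gingiva, 2 to 7 for LiTra against Tra gingiva, 19 to 24 between untreated tissues, 2 to 8 for the difference of tissues and 0 for the others. No call changed its direction. LiTra against Co gingiva fell to 1 without LiTra 1, LiTra 2, LiTra 4, Co 1, Co 3 or Co 4 and reached 4 without Li 4. The difference of tissues was 2 without Co gingiva 3, and 3 without LiTra bone 2 or 3, Co bone 1 or 2, LiTra gingiva 4 or Co gingiva 1 or 4.

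The labels do not tie equal numbers to 1 animal, so the numbers were not taken as pairs. Same-numbered libraries of different groups correlated at -0.33 to 0.545 in bone and -0.207 to 0.153 in gingiva. Those of other numbers correlated at -0.473 to 0.506 and -0.364 to 0.277. Between bone and gingiva of 1 group, the range was -0.138 to 0.217 for equal numbers and -0.2 to 0.198 for others. These values cannot decide whether equal numbers share an animal. A replicate block within each tissue gave 16 for LiTra against Co bone and 1 for LiTra against Tra bone. It gave 2 for LiTra against Co gingiva, 6 for LiTra against Tra gingiva and 5 for the difference of tissues. The block did not match bone to gingiva. Its 17 between untreated tissues takes number 1 as the reference in each tissue, so it is not a test of pairing. Depth limits genes such as Ifng, Cd8b1 and Themis, with few counts a library.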
